A study of Homo sapiens with 6 samples.

Results

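The transcripts described here are those of the heat shock proteins and of the J-domain proteins that work with them, in the cell line T24, which was established from a carcinoma of the human bladder. They were taken from the table by name: protein-coding rows with an HSPA, HSPB, HSPH1, HSPD1, HSPE1, HSP90, DNAJA, DNAJB or DNAJC symbol. The rule found 73 of the 58825 rows, 29 with an HSP symbol and 44 with a DNAJ symbol. Messenger RNA was sequenced from 3 libraries with a hairpin against DLGAP5, shDLGAP5-1, and 3 libraries with a control hairpin, shNC-1. All were grown with antibiotics and 10% fetal bovine serum under 5% CO2 at 37 °C, and the labels name no heat or drug treatment. The shNC-1 cells carry the genotype label WT. The labels name 1 hairpin against DLGAP5, so an effect of that hairpin's sequence cannot be told apart from loss of DLGAP5. The labels do not say that the samples came from separate cultures, so what the p-values measure is how far these samples spread, and that spread could be technical alone.

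Heat shock proteins are molecular chaperones. HSP70 proteins bind and release unfolded stretches of protein in a cycle of ATP hydrolysis. J-domain proteins deliver clients to HSP70 and start that hydrolysis, while HSP110 proteins release the nucleotide. Clients can then pass to HSP90, which finishes the folding of many kinases and receptors, and HSP60 with its lid HSP10 folds proteins inside mitochondria. In stressed cells the transcription factor HSF1 raises many of these genes, and tumour cells are known for high chaperone levels without an outside stress.

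DLGAP5, the target of the hairpin, was measured at 5.03, 4.0 and 7.51 FPKM in shDLGAP5-1 replicates 1 to 3, against 33.0, 32.7 and 29.7 FPKM in shNC-1 replicates 1 to 3. FPKM are fragments per kilobase of transcript, scaled to library size, so levels can be compared between genes. The groups did not overlap (log2 fold change −2.37, limma adjusted p = 0.000894, exact two-sided permutation p = 0.1, the smallest that 3 against 3 libraries allow). Depth, estimated from the smallest steps of the values, was about 14000000 to 18700000 fragments in shDLGAP5-1 libraries and 22200000 to 28300000 in shNC-1 libraries, and the part of this gap in the results was not tested. The keratins KRT7, KRT8 and KRT18 of the epithelial list stood between 237 and 855 FPKM in all libraries, while CDH1 and the uroplakins UPK1A and UPK2 were at 0.201 FPKM or less. VIM was the highest gene of that list, at 1134 to 1630 FPKM. KRT19, PPARG and FOXA1 lay between 3.44 and 20.9 FPKM, EPCAM between 0.765 and 1.18 FPKM and GATA3 at 0.544 FPKM or less. KRT5 was listed at 0 in all shDLGAP5-1 libraries and at 0.026 to 3.95 FPKM in shNC-1 libraries. The library shDLGAP5-1 replicate 3 stood apart by several transcripts of the white blood cell list. The uroplakin UPK3A was also listed at 2.28 FPKM there and at 0 in all other libraries. PECAM1, of the endothelial list, was at 8.45 FPKM there and at 0.388 FPKM or less in all other libraries. LYZ, lysozyme, reached 686 FPKM there, against 0.937 and 11.9 FPKM in the other shDLGAP5-1 libraries and 0.598 to 21.1 FPKM in shNC-1 libraries. The 13 genes of the white blood cell list summed to 1759 FPKM there. The sums were 358 and 497 FPKM in the other shDLGAP5-1 libraries and 461 to 506 FPKM in shNC-1 libraries. Most of every sum was SRGN, at 1013 FPKM there, 345 and 473 FPKM in the other shDLGAP5-1 libraries and 450 to 481 FPKM in shNC-1 libraries. CD74 was higher in all shDLGAP5-1 libraries (10.5 to 14.8 FPKM) than in shNC-1 libraries (2.51 to 3.00 FPKM). CD14 did not set replicate 3 apart (0.482 FPKM, against 0.468 and 0.536 FPKM in the other shDLGAP5-1 libraries). Nor did CD79A (0.0968 FPKM, against 0.0580 and 0.169 FPKM in them). Of the 13 genes, 9 reached 1 FPKM in some library and CD3E was listed at 0 in all. Their part in the results was not tested beyond leaving that library out. In bulk RNA a smaller share of cells with a transcript and less of it per cell cannot be told apart.

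In all, 7 members rose and 9 fell. The stress-inducible HSP70 genes HSPA1A and HSPA1B and the J-domain genes DNAJC12, DNAJC4, DNAJB4, DNAJB9 and DNAJA2 were higher in shDLGAP5-1 cells, and both cytosolic HSP90 genes, the HSP110 genes HSPH1 and HSPA4, the mitochondrial HSP70 and HSP60 genes, HSPA14, DNAJB12 and DNAJC9 were lower. The test covered the 54 rows that reached 1 FPKM in 3 or more libraries, by limma on log2(FPKM + 1) with p-values adjusted over all 12714 tested genes and 0.05 as the threshold. Over all tested genes 24.8% were called, 15.3% higher and 9.52% lower, and of the 54 members 29.6% were called. By name, 9 of 19 tested HSP rows were called (2 higher, 7 lower) and 7 of 35 tested DNAJ rows (5 higher, 2 lower). The median log2 fold change over tested members was −0.07, with −0.19 over HSP rows, −0.02 over DNAJ rows and 0.03 over all tested genes. The libraries of one hairpin lay wholly above those of the other in 29 of the 54 members, and in 43.9% of all tested genes. The split of the member calls moved with the scaling of the libraries: with columns scaled to the same total it was 5 higher and 11 lower, and with median-ratio scaling 5 higher and 15 lower. All tested genes moved in the same sense, with 1944 higher and 1211 lower as deposited, 1282 and 1382 with same-total scaling, and 1404 and 1916 with median-ratio scaling. Median-ratio scaling moved the median of all genes by −0.10, and relative to that median HSPA1A stood at 0.88, against 0.89 as deposited, and HSPH1 at −0.79, against −0.77. Without shDLGAP5-1 replicate 3, which stood apart by several transcripts of the white blood cell list, 6 members were higher and 10 lower. Of the 16 members called here, 12 were among them. Over all tested genes that fit gave 1777 higher and 1364 lower. The call counts were smallest without shNC-1 replicate 2 (5 higher, 2 lower), and without shNC-1 replicate 1 or 3 they were 4 and 6 or 5 and 5. Calls fell over the whole table in the fits without shNC-1 replicates 2, 1 and 3. Of all tested genes 10.5%, 11.9% and 15.2% were called in them, and of the members 13%, 18.5% and 18.5%. These fits also hold fewer samples. The calls of HSPA1A, HSPA1B, HSPA9, HSPH1, DNAJC4 and DNAJC12 were kept in each of 16 alternatives. DNAJC12 met the filter of 1 FPKM, and the alternative of 5 FPKM, only through its shDLGAP5-1 libraries, where it was high. Keeping its call under these filters is therefore no support for it. With no filter it passed too (limma adjusted p = 0.00414).

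**Figure D1:**
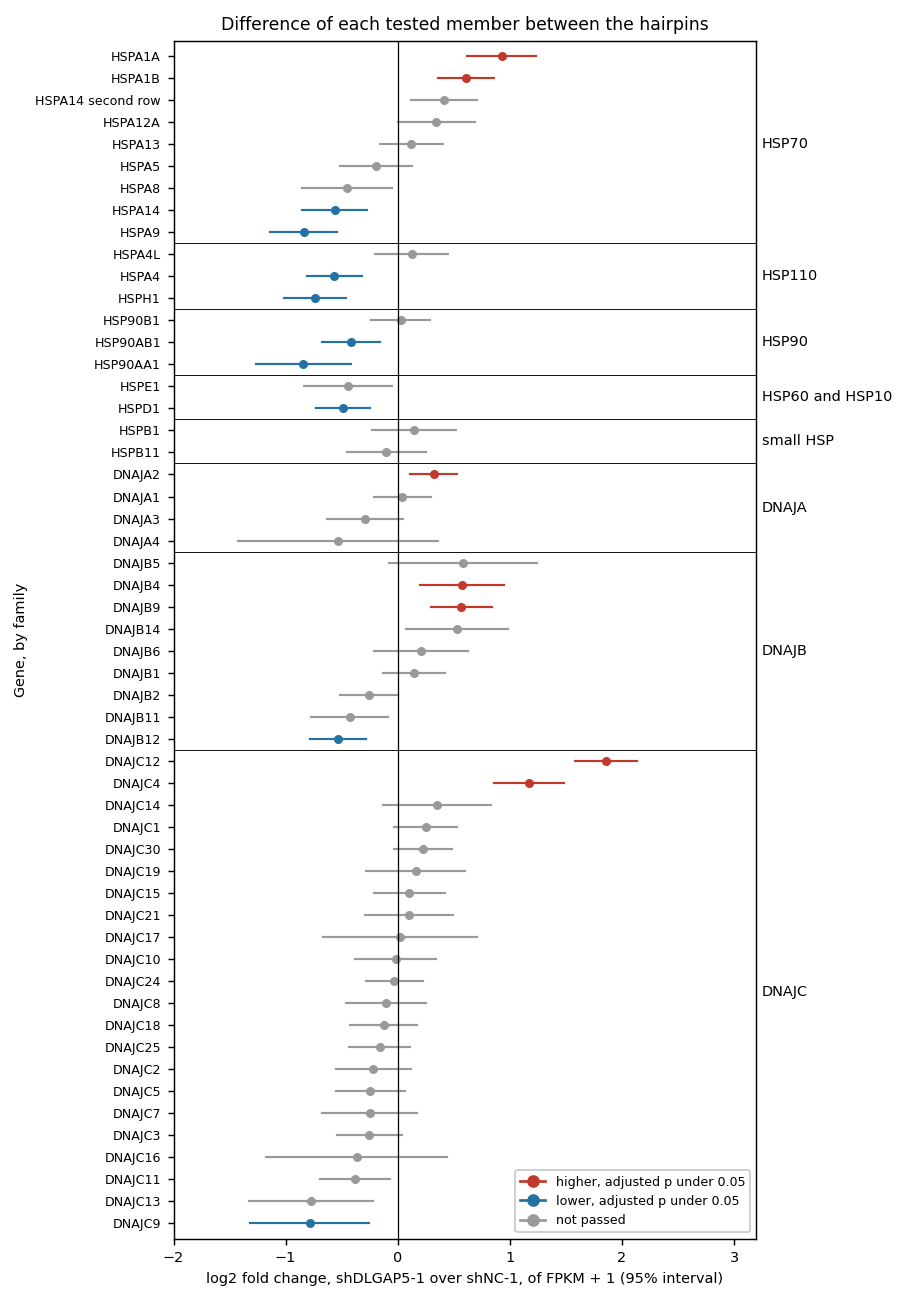
The log2 fold change of FPKM + 1, shDLGAP5-1 over shNC-1, of each of the 54 tested members, by family, with its 95% interval; red and blue mark genes with an adjusted p under 0.05. DNAJC12 lies farthest to the right at 1.86, and HSP90AA1 and HSPA9 farthest to the left at −0.84, with the called HSP90, HSP110 and HSP60 genes on the left of 0.

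HSPA8, the constitutive cytosolic HSP70, was the most abundant member, with a mean of 606 FPKM over the 6 libraries, followed by HSP90AB1, HSP90AA1 and HSPB1. It stood at 409, 589 and 541 FPKM in shDLGAP5-1 replicates 1 to 3, against 726, 612 and 757 FPKM in shNC-1 replicates 1 to 3. All shDLGAP5-1 libraries were below all shNC-1 libraries, but replicates 2 of the groups lay close together, and HSPA8 did not pass (log2 fold change −0.46, 95% interval −0.86 to −0.05, limma adjusted p = 0.0940). It passed with median-ratio scaling (adjusted p = 0.0467), quantile normalization (0.0357) and with a trend over transcript length removed (0.0442). That trend was fitted in each library to the deviations from the gene means.

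HSPA1A and HSPA1B, neighbouring genes for the stress-inducible HSP70, both rose. HSPA1A was measured at 18.2, 19.7 and 14.6 FPKM in shDLGAP5-1 replicates 1 to 3, against 8.63, 8.49 and 8.86 FPKM in shNC-1 replicates 1 to 3. HSPA1B stood at 17.1, 19.1 and 15.99 FPKM in shDLGAP5-1 libraries and at 10.9, 11.1 and 11.1 FPKM in shNC-1 libraries. For both genes the shNC-1 libraries were close to each other and every shDLGAP5-1 library was above them, with shDLGAP5-1 replicate 2 the highest. HSPA1A rose by 0.93 on the log2 scale (standard error 0.13, limma adjusted p = 0.00416) and HSPA1B by 0.61 (standard error 0.11, adjusted p = 0.00862). Their longest transcripts, of 2483 and 2521 bases, were 88.4% identical in a global alignment, so the split of reads between the rows is uncertain; as a sum they rose by 0.79 (adjusted p = 0.00451). HSPA1A lies on chromosome 6 from 31815464 to 31817946 and HSPA1B from 31827738 to 31830254, both on the plus strand, with 9791 bases between them, in GRCh38 coordinates. HSPA1L, the third gene of this cluster, stayed between 0.249 and 0.460 FPKM in all libraries, and HSPA6, another stress-inducible HSP70, at or below 0.114 FPKM.

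The bases before the start of both genes are shown because they rose and share a heat shock element, the site type that HSF1 binds. The element is built from alternating GAA and TTC units, here searched in the 250 bases before each RefSeq start (GRCh38.p14) as GAANNTTC or TTCNNGAA for 2 units, and as GAANNTTCNNGAA or TTCNNGAANNTTC for 3. The 2-unit forms are their own reverse complements and the 3-unit forms are each other's, so both strands are covered, and each 3-unit match contains a pair of 2-unit matches. HSP90AA1, HSPH1 and DNAJC12, described further on, are set beside them as genes of large change. Capitals mark 2-unit matches. The windows are chr6:31815293-31815542 on the plus strand for HSPA1A, chr6:31827488-31827737 on the plus strand for HSPA1B, chr14:102087045-102087294 on the minus strand for HSP90AA1, chr13:31162389-31162638 on the minus strand for HSPH1 and chr10:67838189-67838438 on the minus strand for DNAJC12, each written 5′ to 3′ toward the gene. The RefSeq start of HSPA1A lies inside the span that the table gives for it.
HSPA1A: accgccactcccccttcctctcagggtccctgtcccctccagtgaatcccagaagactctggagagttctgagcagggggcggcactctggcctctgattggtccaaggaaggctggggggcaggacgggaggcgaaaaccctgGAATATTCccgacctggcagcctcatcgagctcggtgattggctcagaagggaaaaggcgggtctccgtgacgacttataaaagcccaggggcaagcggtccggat
HSPA1B: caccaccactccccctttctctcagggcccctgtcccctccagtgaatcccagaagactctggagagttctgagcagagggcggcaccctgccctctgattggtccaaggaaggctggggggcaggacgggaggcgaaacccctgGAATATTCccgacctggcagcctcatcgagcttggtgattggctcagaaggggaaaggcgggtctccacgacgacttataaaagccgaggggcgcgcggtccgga
HSP90AA1: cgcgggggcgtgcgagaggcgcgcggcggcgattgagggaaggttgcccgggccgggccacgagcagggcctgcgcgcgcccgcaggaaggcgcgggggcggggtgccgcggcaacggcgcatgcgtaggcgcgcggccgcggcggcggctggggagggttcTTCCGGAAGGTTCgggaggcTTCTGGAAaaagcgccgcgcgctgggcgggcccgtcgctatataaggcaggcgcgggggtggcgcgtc
HSPH1: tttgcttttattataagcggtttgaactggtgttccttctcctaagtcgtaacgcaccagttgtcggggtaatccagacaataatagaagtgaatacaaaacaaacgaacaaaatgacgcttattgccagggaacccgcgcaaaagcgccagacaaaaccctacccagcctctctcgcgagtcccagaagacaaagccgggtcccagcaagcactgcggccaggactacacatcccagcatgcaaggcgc
DNAJC12: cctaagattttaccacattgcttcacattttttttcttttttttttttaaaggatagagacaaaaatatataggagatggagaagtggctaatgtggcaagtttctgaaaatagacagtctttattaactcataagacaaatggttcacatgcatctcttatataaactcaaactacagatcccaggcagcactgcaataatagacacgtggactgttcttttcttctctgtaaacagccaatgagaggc
The HSPA1A and HSPA1B windows were 93.6% identical and each held GAATATTC, at 106 to 99 bases before the start of HSPA1A and at 105 to 98 bases before that of HSPA1B. The HSP90AA1 window belongs to the second of its 2 RefSeq starts, which lies inside the span of the longer transcripts. It is shown because it held the most 2-unit matches, and no match was found in the window of the other start. It held the 3-unit match TTCCGGAAGGTTC from 88 to 76 bases before the start and TTCTGGAA from 68 to 61. No match to these letters was found in the windows of HSPH1 and DNAJC12.

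Matches were found among members that rose, fell and were not called. RefSeq windows were found for 64 members, some with more than 1 start. A 2-unit match was present for 20 of them (31.2%), against 14% of 27305 genes, and a 3-unit match for 6 (9.38%), against 0.557% of genes. The 6 were HSPA8, HSPA6, HSP90AA1, HSP90AB1, HSPD1 and DNAJB6. By name, 13 of 24 HSP and 7 of 40 DNAJ members had a 2-unit match. A 3-unit match was present for 5 of 24 HSP and 1 of 40 DNAJ members. Of the members with a window that were called, 3 of 8 lower ones and 0 of 7 higher ones had a 3-unit match, and 3 of 8 lower ones and 3 of 7 higher ones a 2-unit match. Among tested members not called, 2 of 34 had a 3-unit and 8 of 34 a 2-unit match. A match of letters is a description and not a measured site.

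Other HSP70 genes work in mitochondria, the endoplasmic reticulum and the cytosol. HSPA9, mortalin, the HSP70 that draws proteins into the mitochondrial matrix, was measured at 38.9, 52.1 and 45.8 FPKM in shDLGAP5-1 replicates 1 to 3, against 79.7, 85.6 and 80.7 FPKM in shNC-1 replicates 1 to 3. Every shDLGAP5-1 library was well below every shNC-1 library, and HSPA9 fell by 0.84 on the log2 scale (standard error 0.13, limma adjusted p = 0.00514). HSPA5, or BiP, the HSP70 of the endoplasmic reticulum, stood at 189.6, 207 and 153 FPKM in shDLGAP5-1 libraries and 200.5, 203 and 222 FPKM in shNC-1 libraries. These ranges overlapped, and no difference was called (log2 fold change −0.19, 95% interval −0.52 to 0.13, adjusted p = 0.340). HSPA13, another HSP70 of the reticulum, had a log2 fold change of 0.12 (adjusted p = 0.4899). HSPA12A, a distant cytosolic relative, was near 1 FPKM, higher in every shDLGAP5-1 library (1.04, 1.52 and 1.74 FPKM) than in every shNC-1 library (0.949, 1.01 and 0.753 FPKM), and did not pass (log2 fold change 0.34, adjusted p = 0.127).

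HSPA14, a ribosome-bound HSP70 relative, has 2 rows in the table whose spans on chromosome 10 overlap by 8713 bases on the same strand, with estimates of opposite sign. The row ENSG00000187522 stood at 9.26, 8.06 and 9.83 FPKM in shDLGAP5-1 libraries and 12.6, 13.7 and 15.2 FPKM in shNC-1 libraries, and fell by 0.56 (limma adjusted p = 0.0182). The row ENSG00000284024 was higher in every shDLGAP5-1 library, at 3.33, 4.26 and 3.71 FPKM, than in every shNC-1 library, at 2.74, 2.66 and 2.35 FPKM, but did not pass (log2 fold change 0.41, adjusted p = 0.0524). Summed into 1 row they had a log2 fold change of −0.33 and did not pass (adjusted p = 0.0564). The call of ENSG00000187522 was thus not kept in the sum, and how reads were split between the rows was not tested. That call was also lost without shDLGAP5-1 replicate 2 (adjusted p = 0.0552), shNC-1 replicate 2 (0.0714) or shNC-1 replicate 3 (0.0601).

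Of the 3 HSP110 genes, which recharge HSP70 with ATP, 2 fell, where 9.52% of all tested genes did. HSPH1 was measured at 29.6, 35.3 and 38.0 FPKM in shDLGAP5-1 replicates 1 to 3, against 58.4, 58.1 and 56.4 FPKM in shNC-1 replicates 1 to 3. HSPA4 stood at 32.9, 36.2 and 39.3 FPKM in shDLGAP5-1 libraries and at 54.0, 54.7 and 52.6 FPKM in shNC-1 libraries. In both genes shDLGAP5-1 replicate 1 was lowest and replicate 3 nearest to the controls, without reaching them. HSPH1 fell by 0.74 (standard error 0.12, limma adjusted p = 0.00608) and HSPA4 by 0.57 (standard error 0.10, adjusted p = 0.00957). The call of HSPA4 was lost without shNC-1 replicate 2 (adjusted p = 0.0520) and with replicate number added to the fit as a block (0.0532). HSPA4L, the third of the family, was low, at 1.90, 1.64 and 2.42 FPKM in shDLGAP5-1 libraries and 1.87, 1.79 and 1.52 FPKM in shNC-1 libraries, and was not called (log2 fold change 0.12, adjusted p = 0.542).

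Both cytosolic HSP90 genes fell while HSP90B1, or GRP94, the HSP90 of the endoplasmic reticulum, was not called. HSP90AA1, the inducible HSP90 alpha, was measured at 350.3, 265 and 427 FPKM in shDLGAP5-1 replicates 1 to 3, against 595, 603 and 639 FPKM in shNC-1 replicates 1 to 3. HSP90AB1, the constitutive HSP90 beta, stood at 466, 518 and 482 FPKM in shDLGAP5-1 libraries and 638, 641 and 679 FPKM in shNC-1 libraries. The shDLGAP5-1 libraries were below all controls in both genes, and they were spread far more widely for HSP90AA1, with replicate 2 the lowest, than for HSP90AB1, with replicate 2 the highest. HSP90AA1 fell by 0.84 (standard error 0.18, limma adjusted p = 0.0166) and HSP90AB1 by 0.42 (standard error 0.11, adjusted p = 0.0322). The call of HSP90AA1 was lost without shNC-1 replicate 1, 2 or 3 (adjusted p = 0.0533, 0.0602 and 0.0551), and that of HSP90AB1 without any 1 of the 6 libraries (adjusted p from 0.0529 to 0.123). HSP90B1 stood at 305, 263 and 260.4 FPKM in shDLGAP5-1 libraries and 258, 274 and 280.0 FPKM in shNC-1 libraries. Its groups overlapped (log2 fold change 0.03, 95% interval −0.24 to 0.29, adjusted p = 0.890), and the sign of the estimate turned with same-total and median-ratio scaling (−0.09 and −0.10).

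HSPD1 and HSPE1, which encode HSP60 and its lid HSP10, lie head to head on chromosome 2. HSPD1 was measured at 252, 227 and 223 FPKM in shDLGAP5-1 replicates 1 to 3, against 322, 332 and 333 FPKM in shNC-1 replicates 1 to 3. HSPE1 stood at 157, 157 and 115 FPKM in shDLGAP5-1 libraries and 174, 181 and 227 FPKM in shNC-1 libraries. The groups were apart for both genes, by a wide margin for HSPD1 and a narrow one for HSPE1. HSPD1 fell by 0.49 (standard error 0.10, limma adjusted p = 0.0155), a call lost without shNC-1 replicate 1 (adjusted p = 0.0589) or 2 (0.0782). HSPE1 did not pass (log2 fold change −0.45, 95% interval −0.84 to −0.05, adjusted p = 0.0949), and passed with same-total scaling (0.0315) and with a length trend removed (0.0128). The table places HSPD1 from 197486584 to 197516737 on the minus strand and HSPE1 from 197500140 to 197503449 on the plus strand, inside that span. The use of strand in counting is not given in the sources used here, so reads in shared exons could not be told apart.

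HSPB1, or HSP27, was the single abundant small heat shock protein. It stood at 555, 501 and 399 FPKM in shDLGAP5-1 replicates 1 to 3, against 391, 427 and 487 FPKM in shNC-1 replicates 1 to 3. The groups overlapped and no difference was called (log2 fold change 0.15, 95% interval −0.23 to 0.52, limma adjusted p = 0.530), and the estimate was −0.01 once a length trend was removed. HSPB11, an intraflagellar transport protein that carries a heat shock name, was at 51.6 ± 9.83 FPKM in shDLGAP5-1 and 54.9 ± 4.16 FPKM in shNC-1 cells (SD, n = 3 each; adjusted p = 0.650 by limma). The other 6 small heat shock genes did not reach 1 FPKM in any library, HSPB2 and HSPB3 being listed at 0 in all.

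**Figure D2:**
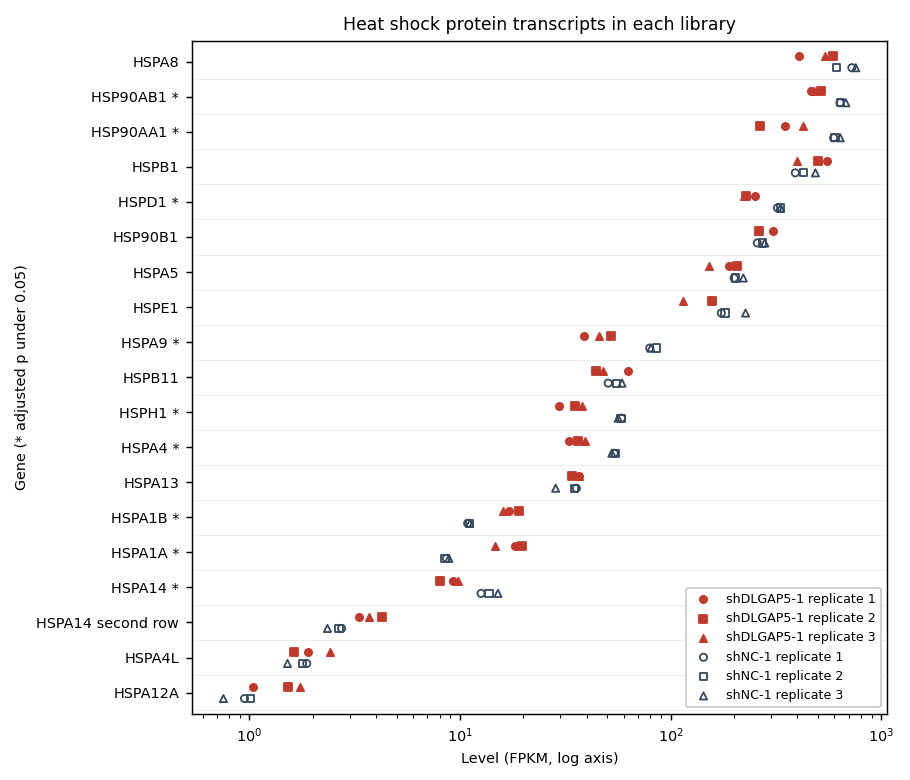
Level in FPKM, on a log axis, of the 19 tested HSP rows in each library, shDLGAP5-1 above shNC-1 within a gene; a star marks an adjusted p under 0.05. Filled points lie left of open ones for HSP90AA1, HSP90AB1, HSPD1, HSPA9, HSPH1 and HSPA4 and right of them for HSPA1A and HSPA1B.

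Ratios between heat shock proteins within a library do not depend on how libraries are scaled. HSPA1A and HSPA1B together came to 8.62%, 6.59% and 5.65% of the HSPA8 level in shDLGAP5-1 replicates 1 to 3, against 2.69%, 3.201% and 2.64% in shNC-1 replicates 1 to 3. The ratio of HSP90AA1 to HSP90AB1 was 0.752, 0.511 and 0.886 in shDLGAP5-1 libraries and 0.933, 0.940 and 0.941 in shNC-1 libraries. Neither measure overlapped between the groups, and both varied more among shDLGAP5-1 libraries than among shNC-1 libraries. For the HSPA1A and HSPA1B share the lack of overlap follows from its parts and adds nothing to them. In every shDLGAP5-1 library HSPA1A and HSPA1B were above all controls and HSPA8 was below them. HSP90B1 over HSP90AA1 was 0.872, 0.992 and 0.610 in shDLGAP5-1 libraries and 0.434, 0.455 and 0.438 in shNC-1 libraries, again without overlap. The ratio of HSPE1 to HSPD1 did overlap, at 0.610 ± 0.0887 in shDLGAP5-1 and 0.590 ± 0.0795 in shNC-1 cells (SD, n = 3 each). Summed, the HSP rows took 0.602%, 0.667% and 0.662% of all FPKM of a library in shDLGAP5-1 replicates 1 to 3, against 0.877%, 0.868% and 0.906% in shNC-1 replicates 1 to 3. A few abundant rows lead this sum. HSP90AA1 plus HSP90AB1 averaged 836 FPKM of 2926 FPKM in shDLGAP5-1 and 1265 FPKM of 3722 FPKM in shNC-1 libraries. Of the 19 tested HSP rows, 8 had a positive log2 fold change and 11 a negative one. The sum of DNAJ rows took 0.164%, 0.172% and 0.180% in shDLGAP5-1 libraries and 0.186%, 0.199% and 0.189% in shNC-1 libraries. In FPKM the DNAJ sum overlapped between the groups (782 ± 15.8 in shDLGAP5-1 and 805 ± 33.2 in shNC-1), and the library totals were 431491 to 487559 FPKM in shDLGAP5-1 and 413001 to 435077 FPKM in shNC-1 libraries. No test was run on these sums and ratios.

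**Figure D3:**
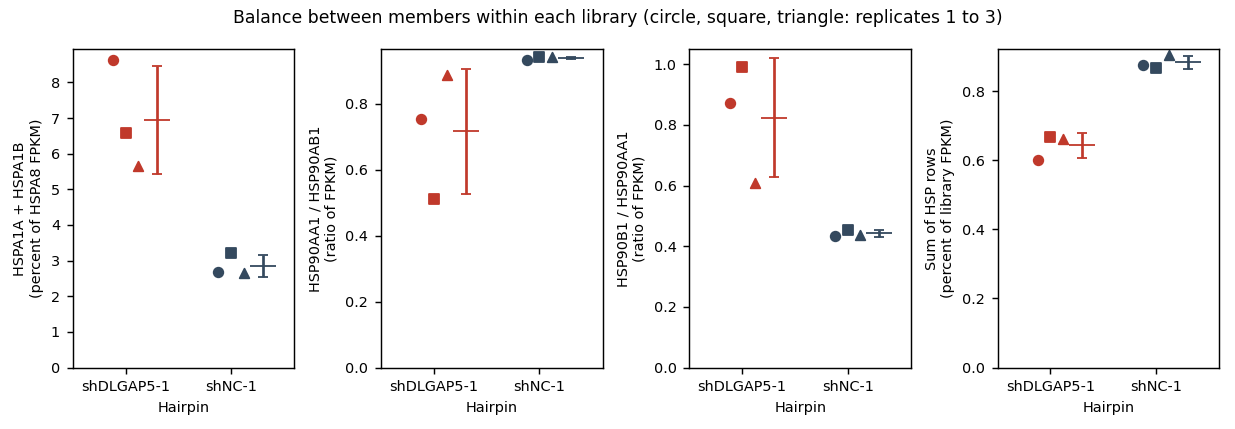
Ratios and sums within each library, with shDLGAP5-1 on the left and shNC-1 on the right of each panel; points are libraries and bars the mean with its SD (n = 3 each). The inducible HSP70 share (5.65% to 8.62%) and the HSP90B1 to HSP90AA1 ratio lie above the shNC-1 libraries, and the HSP90AA1 to HSP90AB1 ratio and the summed HSP rows below them.

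Among the J-domain proteins, DNAJC12 and DNAJC4 rose most. DNAJC12, a cochaperone of the aromatic amino acid hydroxylases, was measured at 5.72, 6.31 and 5.55 FPKM in shDLGAP5-1 replicates 1 to 3, against 0.765, 0.866 and 1.05 FPKM in shNC-1 replicates 1 to 3. DNAJC4 stood at 18.5, 22.01 and 19.7 FPKM in shDLGAP5-1 libraries and at 7.15, 9.38 and 8.62 FPKM in shNC-1 libraries. The groups were far apart in both genes. DNAJC12 rose by 1.86 on the log2(FPKM + 1) scale (standard error 0.12, limma adjusted p = 0.000421) and DNAJC4 by 1.17 (standard error 0.13, adjusted p = 0.00194). With means of 5.86 ± 0.40 FPKM in shDLGAP5-1 and 0.893 ± 0.143 FPKM in shNC-1 cells (SD, n = 3 each), the ratio of the DNAJC12 means was 6.56, against 3.63 in the fit, since adding 1 to each value understates the change of low genes. With a pseudocount of 0.1 its log2 fold change was 2.59. DNAJC12 (ENSG00000108176) lies on chromosome 10 from 67796669 to 67838188 and overlaps only rows listed at 0 in all libraries. DNAJC4 (ENSG00000110011), on chromosome 11 from 64230278 to 64234286, shares 409 bases with NUDT22, whose mean was 31.9 FPKM in shDLGAP5-1 and 29.8 FPKM in shNC-1 cells.

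Of the DNAJA and DNAJB proteins, the general partners of HSP70, 3 rose and 1 fell among 13 tested, where 15.3% and 9.52% of all tested genes did. DNAJA2 stood at 38.7, 39.2 and 37.5 FPKM in shDLGAP5-1 replicates 1 to 3, against 31.2, 30.0 and 30.6 FPKM in shNC-1 replicates 1 to 3. DNAJB9, or ERdj4, a target of the unfolded protein response in the endoplasmic reticulum, was measured at 9.19, 8.57 and 7.62 FPKM in shDLGAP5-1 libraries and 5.27, 5.68 and 5.20 FPKM in shNC-1 libraries. DNAJB12, a J-domain protein of the membrane of the reticulum, stood at 16.9, 20.5 and 18.9 FPKM in shDLGAP5-1 libraries and 26.6, 27.95 and 28.1 FPKM in shNC-1 libraries. None of these genes overlapped between the groups. The spread within each group was small beside the gap for DNAJA2. Beside their gaps, the shDLGAP5-1 libraries were spread more widely for DNAJB9 and DNAJB12. DNAJA2 rose by 0.32 (limma adjusted p = 0.0389) and DNAJB9 by 0.57 (adjusted p = 0.0145), while DNAJB12 fell by 0.53 (adjusted p = 0.0135). DNAJB4, a heat-inducible partner of HSP70, rose by 0.57 (adjusted p = 0.0381), with 5.53, 5.38 and 5.73 FPKM in shDLGAP5-1 libraries and 2.90, 4.50 and 2.98 FPKM in shNC-1 libraries. The call of DNAJA2 was lost without any 1 library (adjusted p from 0.0526 to 0.159) and with same-total (0.183) or median-ratio scaling (0.163). That of DNAJB4 was lost without any 1 library but shNC-1 replicate 2 (0.0719 to 0.129) and with these scalings too (0.0938 and 0.0606), that of DNAJB9 without shNC-1 replicate 1 (0.0607) or 2 (0.0537) and that of DNAJB12 without shNC-1 replicate 2 (0.0652).

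DNAJA1 and DNAJB1, the J-domain proteins best known as partners of cytosolic HSP70, were not called. DNAJA1, the most abundant DNAJ member, stood at 168, 139 and 153 FPKM in shDLGAP5-1 replicates 1 to 3 and 144, 149 and 153 FPKM in shNC-1 replicates 1 to 3. These ranges overlapped throughout (log2 fold change 0.04, 95% interval −0.21 to 0.29, limma adjusted p = 0.817). DNAJB1, or HSP40, which heat shock induces, was at 43.3, 54.9 and 53.1 FPKM in shDLGAP5-1 libraries and 45.7, 45.6 and 44.3 FPKM in shNC-1 libraries, with replicate 1 of shDLGAP5-1 below all controls and the other 2 above (log2 fold change 0.15, adjusted p = 0.390). DNAJB11, a partner of BiP, lay lower in every shDLGAP5-1 library, at 31.6 ± 4.72 FPKM in shDLGAP5-1 and 42.8 ± 5.03 FPKM in shNC-1 cells (SD, n = 3 each), and did not pass (log2 fold change −0.43, adjusted p = 0.0698 by limma). The 9 DNAJA and DNAJB members not called had log2 fold changes from −0.53 (DNAJA4) to 0.58 (DNAJB5), and DNAJB6, which keeps polyglutamine proteins from aggregating, had 0.21 (adjusted p = 0.425).

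DNAJC proteins share only the J domain and serve varied tasks. Of the 22 tested, 2 rose and 1 fell (13.6% called, against 24.8% of all tested genes). DNAJC9, a chaperone of histones, was measured at 18.8, 19.9 and 22.03 FPKM in shDLGAP5-1 replicates 1 to 3, against 28.2, 52.3 and 30.5 FPKM in shNC-1 replicates 1 to 3. It was lower in every shDLGAP5-1 library, and shNC-1 replicate 2 was far above the other controls. DNAJC9 fell by 0.79 (standard error 0.23, limma adjusted p = 0.0432), and without shNC-1 replicate 2 its log2 fold change was −0.52 (adjusted p = 0.0634). The call was also lost without each other library except shNC-1 replicate 1 (adjusted p from 0.0634 to 0.106). Its span overlaps FAM149B1 on the opposite strand, whose mean was 11.7 FPKM in shDLGAP5-1 and 6.24 FPKM in shNC-1 cells. DNAJC8, of the spliceosome and the most abundant DNAJC member, stood at 77.2, 56.5 and 59.5 FPKM in shDLGAP5-1 libraries and 68.7, 60.8 and 77.0 FPKM in shNC-1 libraries, with full overlap (adjusted p = 0.659).

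The 19 DNAJC members not called had log2 fold changes from −0.77 to 0.35. DNAJC13, which acts in endosome traffic, was at the lower end, with 9.12, 13.4 and 18.7 FPKM in shDLGAP5-1 replicates 1 to 3 and 26.2, 23.3 and 20.6 FPKM in shNC-1 replicates 1 to 3. It was lower in every shDLGAP5-1 library but with a wide spread (limma adjusted p = 0.0521), and it passed with median-ratio scaling, quantile normalization, or a length trend removed. DNAJC11, of the mitochondrial inner membrane organizing system, had a log2 fold change of −0.38 (adjusted p = 0.0752), and DNAJC3, an inhibitor of the kinase PERK, −0.25 (adjusted p = 0.178). DNAJC14 was at the upper end with 0.35 (adjusted p = 0.255). DNAJC19 and DNAJC15, which work at the protein import motor of mitochondria, had log2 fold changes of 0.16 and 0.10 (adjusted p = 0.570 and 0.602). DNAJC25 had −0.16 alone and 0.14 when summed with its read-through row DNAJC25-GNG10.

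**Figure D4:**
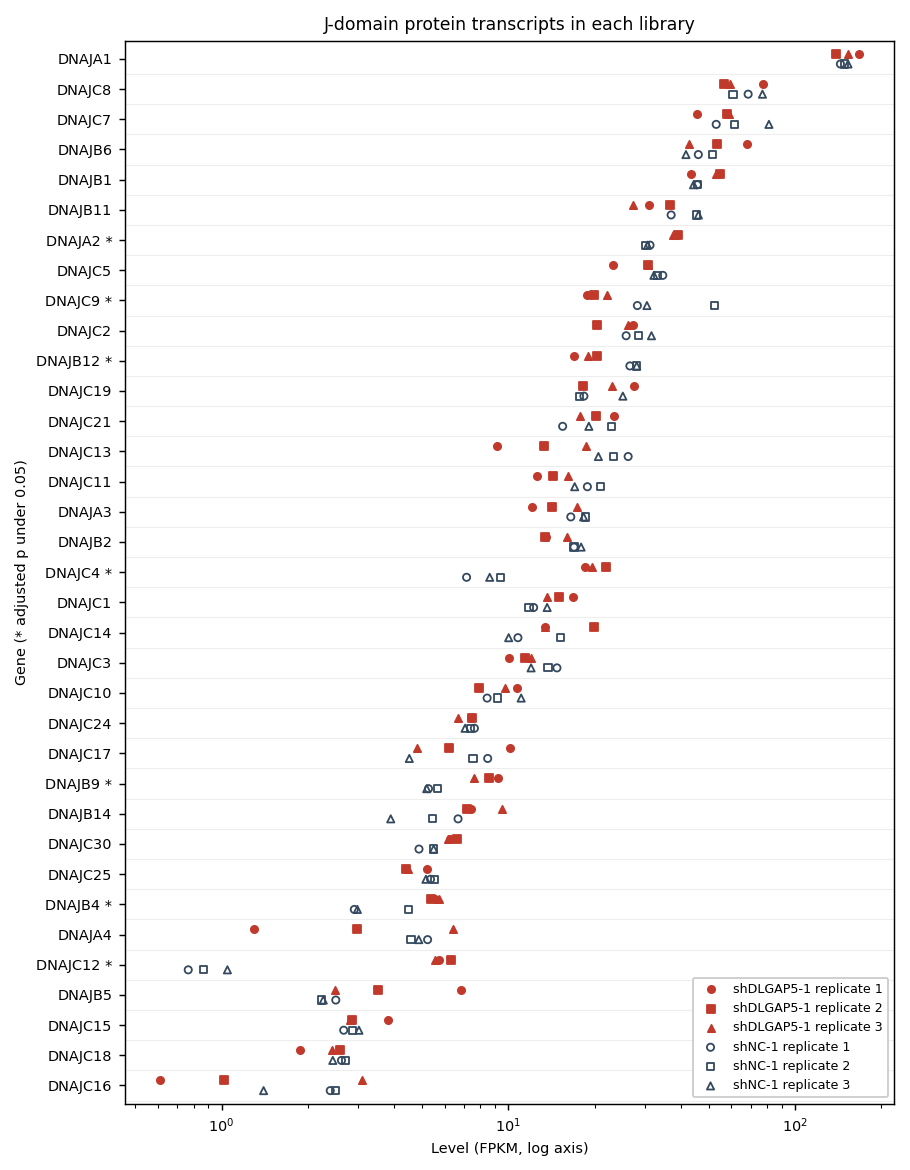
Level in FPKM, on a log axis, of the 35 tested DNAJ members in each library, shDLGAP5-1 above shNC-1 within a gene; a star marks an adjusted p under 0.05. DNAJC12 and DNAJC4 show filled points far right of open ones, and DNAJA4, DNAJC16 and DNAJB5 show a wide spread among shDLGAP5-1 libraries.

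By compartment of the protein, assigned from general knowledge, 5 rose and 6 fell of 28 tested cytosolic or nuclear members, 1 rose and 1 fell of 10 in the endoplasmic reticulum, and 0 rose and 2 fell of 8 in mitochondria. These are 39.3%, 20% and 25% of the tested members, against 24.8% of all tested genes, so the shares of the reticulum and of mitochondria lie near the background. The groups did not overlap in 15 of 28 cytosolic or nuclear members (53.6%), 6 of 10 of the reticulum (60%) and 5 of 8 of mitochondria (62.5%), against 43.9% of all tested genes. Of the 8 tested members with another or no assigned compartment, 1 rose and 0 fell (12.5% called). The groups did not overlap in 3 of those 8 (37.5%). Compartments were not tested against each other.

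Some J-domain genes varied more among shDLGAP5-1 libraries than between hairpins. DNAJA4 stood at 1.30, 2.98 and 6.42 FPKM in shDLGAP5-1 replicates 1 to 3, against 5.23, 4.58 and 4.87 FPKM in shNC-1 replicates 1 to 3. DNAJB5 was at 6.86, 3.52 and 2.49 FPKM in shDLGAP5-1 libraries and 2.50, 2.22 and 2.26 FPKM in shNC-1 libraries. DNAJC16 was at 0.610, 1.02 and 3.09 FPKM in shDLGAP5-1 libraries and 2.39, 2.50 and 1.40 FPKM in shNC-1 libraries. Replicates 1 and 3 of shDLGAP5-1 were at opposite ends in all of these genes, the shNC-1 libraries were closer together in DNAJA4 and DNAJB5, and no difference was called (limma adjusted p from 0.171 to 0.471). Without shDLGAP5-1 replicate 3 all 3 passed.

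The 19 members that were not tested were low or absent. Of these, 16 stayed under 1 FPKM in every library, and 5 were listed at 0 in all (DNAJB8, DNAJB13, DNAJC5B, HSPB2, HSPB3). DNAJC6, auxilin, which uncoats clathrin vesicles, was highest among them in the controls, with 0.328 to 0.688 FPKM in shDLGAP5-1 and 0.876 to 1.15 FPKM in shNC-1 libraries.

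The genes that regulate or assist these chaperones, HSF transcription factors and cochaperones on a list of 56 genes without members, gave 2 rises and 9 falls among 52 tested, against 15.3% higher and 9.52% lower among all tested genes. STIP1, or HOP, which links HSP70 to HSP90, was measured at 51.3, 66.5 and 77.5 FPKM in shDLGAP5-1 replicates 1 to 3, against 145, 113 and 137 FPKM in shNC-1 replicates 1 to 3. HYOU1, the HSP110 relative of the endoplasmic reticulum, stood at 30.8, 31.0 and 41.1 FPKM in shDLGAP5-1 libraries and 67.2, 64.2 and 61.5 FPKM in shNC-1 libraries. Both were lower in every shDLGAP5-1 library by a wide margin. STIP1 fell by 1.02 (limma adjusted p = 0.00783) and HYOU1 by 0.90 (adjusted p = 0.00507). CLPB, a mitochondrial disaggregase, fell by 1.16 (adjusted p = 0.00612), with 4.23, 4.95 and 5.84 FPKM in shDLGAP5-1 libraries and 9.54, 13.2 and 14.7 FPKM in shNC-1 libraries, and CHORDC1, an HSP90 cochaperone, by 0.67 (adjusted p = 0.00743). RUVBL1, an ATPase of the R2TP cochaperone complex, fell by 0.52, NUDC, a cochaperone known from nuclear movement, by 0.48, TIMM44, of the import motor with HSPA9, by 0.46, TTC4 by 0.44 and FKBP4, an HSP90 immunophilin, by 0.41 (adjusted p from 0.0138 to 0.0367). Without 1 library the NUDC call was lost in all 6 fits (adjusted p from 0.0561 to 0.109) and that of TIMM44 in all but the fit without shDLGAP5-1 replicate 2 (0.0714 to 0.110). The TTC4 call was lost without shDLGAP5-1 replicate 2 or any shNC-1 library (0.0647 to 0.0891), that of FKBP4 without any shNC-1 library (0.0741 to 0.0848) and that of RUVBL1 without shNC-1 replicate 2 (0.0553). With no filter on low values NUDC and TIMM44 did not pass either (0.0878 and 0.0758).

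GRPEL2 and FKBP8 were the list genes that rose. GRPEL2, a nucleotide exchange factor for HSPA9, was at 9.27, 9.51 and 11.6 FPKM in shDLGAP5-1 replicates 1 to 3, against 4.13, 4.09 and 3.75 FPKM in shNC-1 replicates 1 to 3. It rose by 1.15 (limma adjusted p = 0.00172), while its paralog GRPEL1 was not called (log2 fold change −0.30, adjusted p = 0.253). FKBP8, an immunophilin of mitochondria, stood at 125, 120.1 and 102 FPKM in shDLGAP5-1 libraries and 68.2, 67.0 and 76.8 FPKM in shNC-1 libraries, and rose by 0.70 (adjusted p = 0.00744). For both genes every shDLGAP5-1 library was above every control. HSF1, the main heat shock factor, stood at 43.2, 51.1 and 44.3 FPKM in shDLGAP5-1 libraries and at 37.1, 43.4 and 38.0 FPKM in shNC-1 libraries. Its groups just overlapped (log2 fold change 0.22, 95% interval −0.05 to 0.49, adjusted p = 0.202), and HSF2 was low, at 4.40 ± 0.970 FPKM in shDLGAP5-1 and 3.86 ± 0.596 FPKM in shNC-1 cells (SD, n = 3 each, limma adjusted p = 0.583). BAG3, a heat-inducible HSP70 cochaperone, had a log2 fold change of −0.17 (adjusted p = 0.244) and TRAP1, the mitochondrial HSP90, −0.24 (adjusted p = 0.273). The 9 falls became 5, 4 and 5 without shNC-1 replicates 1, 2 and 3, and the calls of GRPEL2, FKBP8, HYOU1, CLPB, CHORDC1 and STIP1 were kept in each of 16 alternatives. GRPEL2 met the alternative filter of 5 FPKM only through its shDLGAP5-1 libraries, and CLPB only with its shNC-1 libraries. Keeping these 2 calls under that filter is therefore no support for them.

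**Figure D5:**
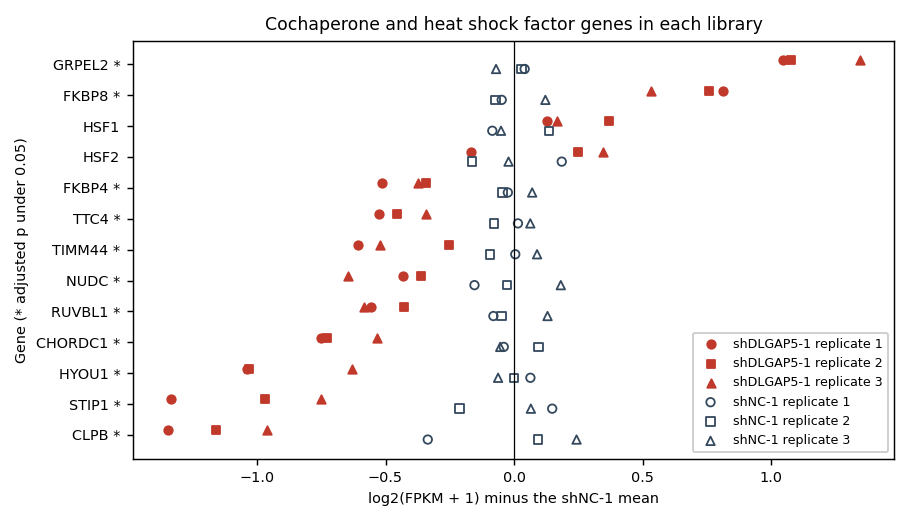
log2(FPKM + 1) minus the shNC-1 mean of the 11 cochaperone genes that passed and of HSF1 and HSF2, in each library, shDLGAP5-1 above shNC-1 within a gene. Filled points of STIP1, HYOU1, CLPB and CHORDC1 lie left of the open points around 0, and those of GRPEL2 and FKBP8 to the right.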

How the data were processed

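Values for 58825 genes came in 1 table that the authors deposited, with Ensembl identifiers and coordinates. These deposited values were taken as FPKM, normalized to transcript length and library size by the authors, from their form alone, as no unit is stated: fractional values, library sums of 413001 to 487559, and low values of single-exon genes that step inversely with length. How reads were aligned and quantified, with which annotation and whether by strand, is not given in the sources used here. GENCODE release 29 lists 58552 of the identifiers, 50987 (87.1%) with identical GRCh38 coordinates; all 73 members are listed, but only 40 (54.8%) with identical coordinates, so spans and overlaps of members are as the table gives them. Columns named NC were matched by number to shNC-1, and the rest to shDLGAP5-1, the only other group.

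The limma fit (version 3.58.1, R 4.3.3, trended variance, group as the single term) used log2(FPKM + 1) of genes reaching 1 FPKM in 3 or more libraries, with the Benjamini-Hochberg adjustment, and was tested on simulated data. Members and lists were chosen with earlier results of these data known. Values per library are given for called members that average 5 FPKM or more and change by 0.3 or more on the log2 scale, and for the 10 most abundant. DNAJC12, DNAJB4, the uncalled genes shown outside this rule (also GRPEL1, BAG3 and TRAP1) and the promoters of HSPA1B and HSPH1 were chosen after their values were seen. Promoters came from RefSeq, searched with Python 3.11.15. Alternatives were pseudocount, filters, scalings, a length trend, a replicate block, a robust prior, summed rows and leaving out each library.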

Additional observations from a re-analysis of the deposited data

How the results depend on the processing

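Libraries with the same replicate number did not deviate together: the correlations of deviations between same-numbered libraries were −0.155, 0.0210 and −0.157. With a replicate block 4 members were called higher and 3 lower, 4 list genes (HSF and cochaperones) lower and 1464 of all genes called, against 7, 9, 9 and 3155 without it. Over the fits that left out 1 library, member calls ranged from 4 to 7 higher and 2 to 10 lower, list genes called lower from 4 to 8, and all genes called from 1335 to 3141. Median-ratio scaling gave 15 members lower, removal of the length trend 14 list genes lower, and testing without a filter on low values 2071 called genes of 31433. Over all tested genes 1916 were lower with median-ratio scaling and 1890 with the length trend removed, against 1211 as deposited. The median log2 fold change of members was −0.17 with same-total and −0.18 with median-ratio scaling, against −0.07 as deposited. That of all tested genes moved too, to −0.06 and −0.07, against 0.03. Estimates near 0 turned sign. The log2 fold change of DNAJA1 was −0.0712 with same-total scaling, −0.0823 with median-ratio scaling and −0.0513 with the length trend removed, with or without the block, against 0.0398, and ran from −0.0271 to 0.107 without 1 library. That of HSP90B1 was −0.0857, −0.0968 and −0.0231 under the same corrections, against 0.0256, and ran from −0.0487 to 0.0660 without 1 library. HSPB1 was at −0.0114 with the length trend removed, with or without the block, and DNAJC25 at 0.138 when summed with its read-through row. The causes were not tested. Of the 16 member calls, 6 were kept in all 16 alternatives and 2, HSP90AB1 and DNAJA2, were lost in each leave-one-out fit. The replicate block lost the calls of DNAJA2, DNAJB4, DNAJB9, DNAJB12, DNAJC9, HSP90AB1, HSPA4, HSPA14 and HSPD1. Testing without a filter lost those of DNAJB4, DNAJC9, HSP90AA1 and HSP90AB1. A sum with an HSPB2 read-through row were not run, since HSPB2 is listed at 0. The depth of counting behind each value is not known exactly, so low members carry an error that was not estimated.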
